A study of Mus musculus with 49 samples.

Results

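Nuclei of medium spiny neurons (MSNs), of the D1 or the D2 type, were sorted from the mouse nucleus accumbens (NAc), and their RNA was compared between both cell types. The comparison comprised every column of the deposited count table that is named for sorted nuclei, 6 D1 and 5 D2 libraries of the 49 columns in the table. The study as a whole isolated the same cell types in other ways too, by sorting whole cells and by pulling down tagged ribosomes (RiboTag), to ask how the method of isolation shapes the transcriptome. D1 nuclei came from Drd1-cre mice and D2 nuclei from Drd2-cre mice, both crossed to a Thy1-loxPSTOPloxP-EGFP-F line, so that Cre turned on a heterozygous nuclear GFP label in each. All were male C57BL/6J mice whose age was not given, every library stood for a separate mouse, and no treatment was applied. Frozen NAc was dounced, nuclei were cleaned on a sucrose gradient and sorted for GFP and DAPI, and ribosome-depleted stranded libraries were made from their total RNA. As a model, the label followed the activity of the Drd1 or the Drd2 promoter carried by the Cre transgene, so a nucleus of any cell in which that promoter had been active could be in the sort.

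MSNs are the GABA-releasing projection neurons that make up most of the striatum, of which the NAc is the ventral part. D1-MSNs carry the dopamine receptor Drd1, which raises cAMP, and make the peptides dynorphin and substance P. D2-MSNs carry Drd2, which lowers cAMP, and make enkephalin from the precursor Penk. RNA in a nucleus is a mixture of unspliced transcripts, spliced transcripts on their way out and RNAs that stay in the nucleus, so its levels need not follow those in the cytoplasm.

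A few loci took very different shares of these libraries, and several libraries stood apart. Total counts ranged from 3837701 to 68777008 in D1 and from 3701255 to 47079150 in D2 libraries, and the group means were not separated (exact permutation test of the difference in means, two-sided, p = 0.355). The 10 genes with the highest counts held a mean of 44.3% of the counts in D1 libraries (SD 21.9, n = 6), against 10.1% in D2 libraries (SD 3.92, n = 5). The ribosomal RNA gene CT010467.1 alone held 6.17 to 20.9% in D1 and 1.295 to 4.06% in D2 libraries. It shares 1831 bases with Gm42418 and 923 with AY036118, and a fragment on several genes was counted for each. The same reads can thus enter the share of the 10 highest genes more than once. In D1 library 1 these genes held 20.9, 17.7 and 17.2% of the counts. Genes of olfactory and vomeronasal receptors, which neurons of the NAc are not known to use, were taken as a measure of reads spread evenly over the genome. Their counts per kilobase, applied to the span of all genes, predicted 0.572, 1.57, 22.04, 11.0, 1.64 and 7.49% of the counts of D1 libraries 1 to 6 and 46.9, 32.0, 34.0, 51.7 and 33.0% of those of D2 libraries 1, 2, 3, 5 and 7. No D1 library reached the lowest D2 library, and this predicted share, called the background share below, was higher in D2 by the same exact test (p = 0.004329, the smallest this test can give, adjusted p = 0.00866 over 14 library measures). D1 libraries 1, 2 and 5 had the lowest background shares, and D1 library 3, with the highest in its group, ranked genes more like the D2 libraries (median Spearman's rho 0.968 over 5 pairs, across genes) than like the other D1 libraries (0.917). Since the groups do not overlap in the background share, it and the cell type cannot be told apart. The called members of each gene list below are also counted without D1 libraries 1, 2 and 5, chosen after their background was seen, where 2.42% of all genes tested were called higher in D1 and 1.13% higher in D2.

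**Figure D1:**
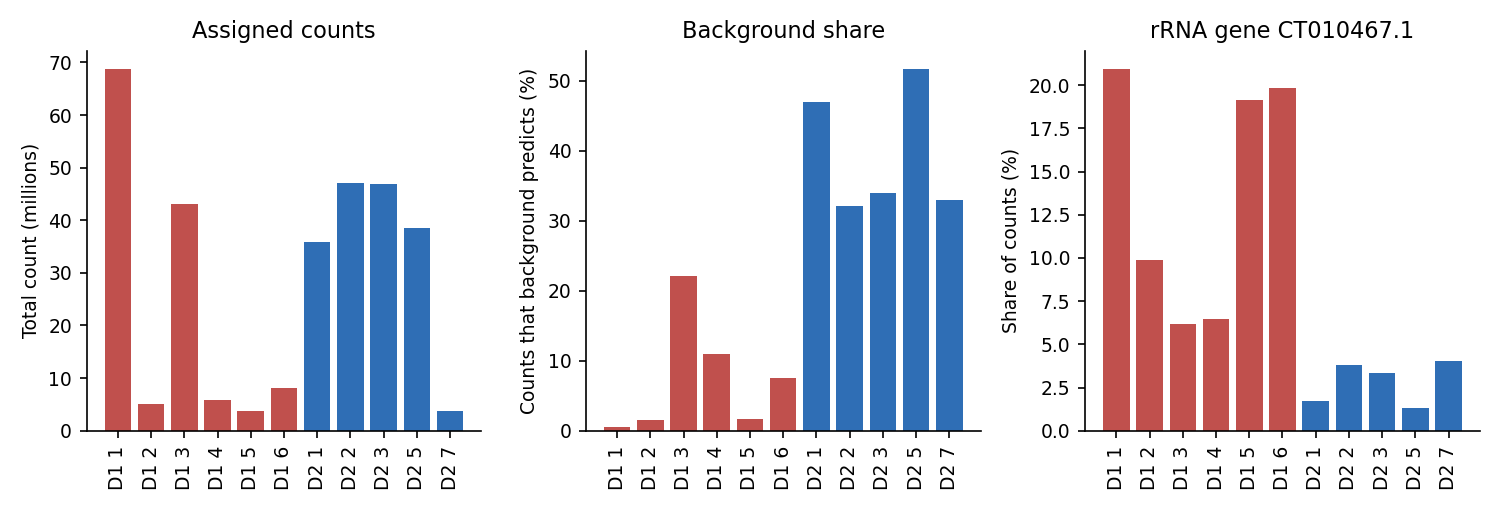
Total count, background share in percent and share of counts on the ribosomal RNA gene CT010467.1 in percent, each by library, with D1 libraries in red and D2 libraries in blue. The background share ran from 0.572 to 22.04% in D1 and from 32.0 to 51.7% in D2 libraries, and the CT010467.1 share was above 6% in every D1 library and at most 4.06% in every D2 library.

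Counts fell on markers of several other cell types in both groups. The summed level of 10 astrocyte markers was 1743 ± 263 counts-per-million (CPM; SD, n = 6) in D1 libraries, against 1009 ± 172 (SD, n = 5) in D2 libraries, without overlap between the groups (exact permutation test, adjusted p = 0.00866). The sum of 8 endothelial markers was 97.9 ± 78.0 in D1 and 312 ± 49.0 in D2 libraries, and that of 10 interneuron markers 142.6 ± 45.5 and 303 ± 48.9, again without overlap and with the same adjusted p. In libraries thinned to the lowest total the endothelial groups overlapped (highest D1 value 234, lowest D2 value 217 CPM). The endothelial sum was lowest in D1 library 1 (26.6 CPM) and highest in D2 library 5 (384 CPM), which had the lowest and highest background share. The part of background in these sums was not tested. Oligodendrocyte markers had the higher sum in D1 (1074 ± 257 against 706 ± 242 CPM, adjusted p = 0.0455), their precursors' markers in D2 (60.5 ± 18.03 against 84.4 ± 10.2, adjusted p = 0.0386), and cortical excitatory markers did not pass the test (154 ± 50.5 against 205 ± 25.3, adjusted p = 0.0839, all by exact permutation test). The oligodendrocyte and the precursor difference each missed the threshold in 9 of 12 alternatives, with adjusted p-values up to 0.100 and 0.199 by the same exact test. No marker of these lists was at 0 in every library. Transcripts of the mitochondrial genome, which do not belong in nuclei, made up 1950 to 40291 CPM in D1 and 308 to 1461 CPM in D2 libraries. The part of these other cells and of the mitochondrial RNA in the differences below was not tested, and as in any bulk sample fewer nuclei of a type and less RNA per nucleus cannot be told apart.

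The receptors that named the sorts went with their labels in every library. Drd1 (ENSMUSG00000021478, chromosome 13, 54051183 to 54055705, minus strand, GRCm38) had a lowest, median and highest level of 22.4, 55.4 and 74.1 normalised CPM in D1 libraries, and levels of 17.1, 14.4, 18.5, 8.79 and 15.9 in D2 libraries. Normalised CPM are counts-per-million of the library size after TMM scaling over the genes tested. Every D1 library lay above every D2 library, and the level was 3.36-fold higher in D1 (log2 fold change -1.75 ± 0.30 (SE), edgeR adjusted p = 0.00919, negative values standing for higher levels in D1 throughout). Drd2 (ENSMUSG00000032259, chromosome 9, 49340627 to 49408177, plus strand) had 215, 239 and 420 normalised CPM as lowest, median and highest D1 value and 1046, 962, 1145, 694 and 614 in the D2 libraries, again without overlap. It was 3.35-fold higher in D2 (log2 fold change 1.74 ± 0.21, edgeR adjusted p = 0.00218), and background predicted a median of 3.14% of its counts in D1 and 5.99% in D2 libraries. Without D1 libraries 1, 2 and 5 the log2 fold changes were -1.47 for Drd1 (adjusted p = 0.0404) and 1.86 for Drd2 (adjusted p = 0.00872). Scaled over the larger gene set left when the FPKM filter was dropped, where the median of the genes tested in both fits shifts by -1.13, Drd1 had -2.96 and Drd2 0.57 (adjusted p = 0.171), so the Drd2 call rests on the scaling. The 250 bases before the first listed start site of each receptor are shown because the matching promoters drove the Cre that marked the nuclei. RefSeq gives them for GRCm38.p6 at chr13:54055659-54055908 (minus strand) and chr9:49340153-49340402 (plus strand). Capitals mark the GC box, GGGCGG or its complement CCGCCC, a motif found in 32.9% of all 27025 such windows in the table.
Drd1: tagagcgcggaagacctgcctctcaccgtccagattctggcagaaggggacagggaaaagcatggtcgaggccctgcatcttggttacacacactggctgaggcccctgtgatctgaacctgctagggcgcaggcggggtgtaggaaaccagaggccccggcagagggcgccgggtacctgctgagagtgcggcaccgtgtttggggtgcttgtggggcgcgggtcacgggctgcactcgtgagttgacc
Drd2: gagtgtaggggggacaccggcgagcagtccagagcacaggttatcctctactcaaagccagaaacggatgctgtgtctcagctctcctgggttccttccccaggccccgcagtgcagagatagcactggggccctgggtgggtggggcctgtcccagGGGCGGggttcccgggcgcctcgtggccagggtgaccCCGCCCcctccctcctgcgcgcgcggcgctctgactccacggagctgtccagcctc
The Drd1 window held 15 CpG pairs and no GC box, and the Drd2 window 15 CpG pairs and 2 GC boxes. Another Drd1 start is listed, and its window, at chr13:54054781-54055030 (minus strand), held 5 CpG pairs and 1 GC box. None of these windows held TATAAA or the cAMP response element TGACGTCA, on either strand.

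More genes were called higher in D1 than in D2 nuclei. Of 9224 genes tested, 959 (10.4%) were called higher in D1 and 528 (5.72%) higher in D2 at an edgeR adjusted p of at most 0.05. Of the 9224, 4414 had a negative log2 fold change and the median was 0.04. The TMM scaling over these same genes sets that centre, so it cannot show whether levels as a whole lean to either side. Scaled without the FPKM filter, the same genes had a median of -1.10. With the background of each library subtracted, the balance of calls turned, to 1042 genes (9.63%) higher in D1 and 1209 (11.2%) higher in D2 of 10815 tested. Differentially expressed genes (DEGs) also had to pass the limits on fold change, mean count and standard error that the study set, which left 837 D1-enriched (9.07%) and 296 D2-enriched (3.21%) DEGs. D1-enriched DEGs had a median span of 8963 bases and a median absolute log2 fold change of 1.13, against 18882 bases and 0.81 for D2-enriched DEGs, and 79.9% and 78.7% of them were protein-coding. Every D1 library lay above every D2 library in 5.72% of all genes tested and in 431 (51.5%) of the D1-enriched DEGs, and every D2 library above every D1 library in 7.26% of all genes and in 226 (76.4%) of the D2-enriched DEGs.

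**Figure D2:**
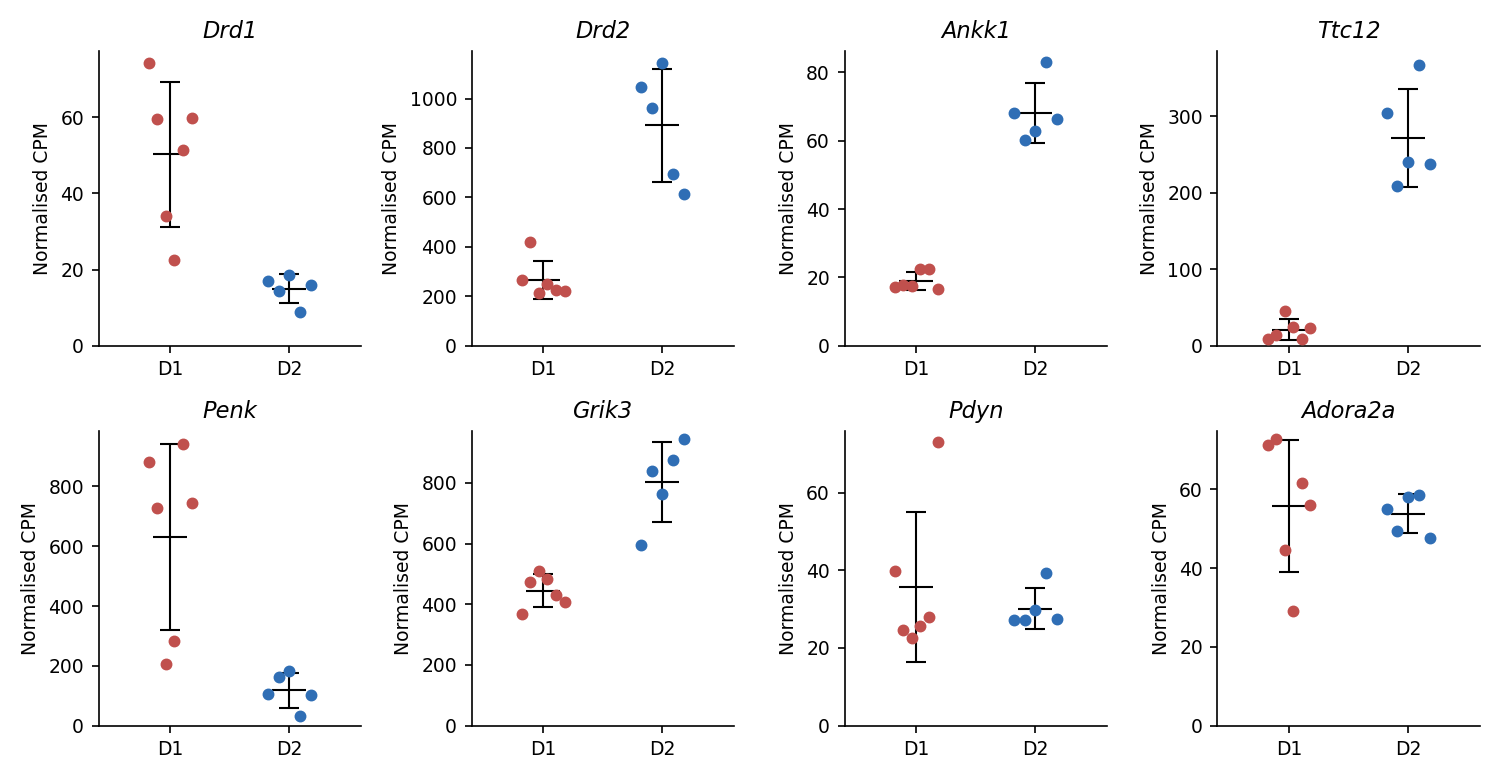
Normalised CPM in each D1 library (red) and D2 library (blue), with the mean and SD of each group as bars, for Drd1, Drd2, Ankk1, Ttc12, Penk, Grik3, Pdyn and Adora2a, each panel on its own axis. Drd1 and Penk lay higher in every D1 library, and Drd2, Ankk1, Ttc12 and Grik3 in every D2 library, while Pdyn and Adora2a overlapped (Grik3 had the opposite sign, -0.26 with adjusted p = 0.333, when scaled without the FPKM filter).

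Beyond the receptors, few classical D1 or D2 markers separated the nuclei in the direction of their name. Of 8 D1-MSN markers 5 were tested, and Drd1 alone was called (median log2 fold change of the 5 genes -0.78, against 0.04 over all genes tested). The dynorphin precursor Pdyn had 22.7, 26.8 and 73.1 normalised CPM as lowest, median and highest value in D1 libraries and 27.1, 27.2, 29.9, 39.2 and 27.4 in D2 libraries, so that the groups overlapped (log2 fold change -0.23 ± 0.28, edgeR adjusted p = 0.606). Tac1, the substance P precursor, had a log2 fold change of -0.43 ± 0.27 (adjusted p = 0.281), the muscarinic receptor Chrm4 -0.78 ± 0.36 (adjusted p = 0.142) and the transporter Slc35d3 -0.81 ± 0.36 (adjusted p = 0.133). The transcription factors Isl1, Ebf1 and Eya1, which help set D1 identity or are used to mark it, did not pass the filter on low values. When the FPKM filter was dropped all 8 were tested, 5 were called higher in D1 and 2 higher in D2 (20.6% and 5.6% of all genes tested there). The 2 were Ebf1 (log2 fold change 0.50, adjusted p = 0.0408) and Eya1 (0.87, adjusted p = 0.0245), genes for which the background of D2 libraries predicted a median of 54.0% and 57.1% of the counts.

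Of 7 D2-MSN markers 6 were matched in the table and 5 were tested, with 2 called higher in D2 and 1 higher in D1. Those higher in D2 were Drd2 and Grik3, a kainate-type glutamate receptor subunit. Grik3 had 368, 451 and 510 normalised CPM as lowest, median and highest D1 value and 596, 840, 764, 874 and 944 in D2 libraries, a difference of 0.85 ± 0.14 on the log2 scale (edgeR adjusted p = 0.00919) without overlap. Grik3 missed the threshold without D1 libraries 1, 2 and 5 (0.67, adjusted p = 0.0551) and in libraries thinned to the lowest total (0.73, adjusted p = 0.0696), and scaling without the FPKM filter turned its sign to -0.26 (adjusted p = 0.333). The marker higher in D1 was Penk (ENSMUSG00000045573, chromosome 4, 4133531 to 4138819, minus strand), the enkephalin precursor and a hallmark of D2-MSNs. Its span overlaps the gene A830012C17Rik, and a shared fragment was counted for each gene without regard to strand. Penk had 207, 736 and 941 normalised CPM as lowest, median and highest value in D1 libraries and 106, 162, 184, 33.6 and 103 in D2 libraries. All D1 libraries lay above all D2 libraries, by 5.33-fold (log2 fold change -2.41 ± 0.46, edgeR adjusted p = 0.00919), opposite to what the marker stands for. It kept that direction without D1 libraries 1, 2 and 5 (-1.90, adjusted p = 0.0486) and with background subtracted (-2.16, adjusted p = 0.0100), but with the background share as a covariate its estimate was 0.64 (adjusted p = 0.999). The adenosine receptor Adora2a had 29.0, 58.7 and 72.7 as lowest, median and highest D1 value and 55.1, 49.4, 58.0, 58.6 and 47.7 in D2 libraries, and its log2 fold change was -0.05 ± 0.21 (adjusted p = 0.893). Gpr6, an orphan receptor of D2-MSNs, had -1.12 ± 0.53 (adjusted p = 0.162) and no count in D2 library 7, and the transcription factor Sp9 was not tested.

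Genes that both kinds of MSN share were called in D1 alone. Of 20 shared MSN genes, all of them tested, 12 were higher in D1 and 0 in D2, where 10.4% and 5.72% of all genes tested were, with a median log2 fold change of -0.61 against 0.04 over all genes. Ppp1r1b, which encodes the dopamine- and cAMP-regulated phosphoprotein DARPP-32, had 98.7, 245 and 359 normalised CPM as lowest, median and highest D1 value and 59.4, 65.7, 91.2, 31.9 and 49.0 in D2 libraries. The groups did not overlap (log2 fold change -1.94 ± 0.37, edgeR adjusted p = 0.00919). The phosphodiesterase Pde1b had a log2 fold change of -1.31 ± 0.27 (edgeR adjusted p = 0.0100) and Gnal, the G protein subunit that couples receptors to adenylyl cyclase in striatum, -0.71 ± 0.16 (adjusted p = 0.0114). Of these, Pde1b had overlapping groups. Without D1 libraries 1, 2 and 5, 2 of the 20 were called, both with higher levels in D1, and Pde1b (adjusted p = 0.0678) and Gnal (adjusted p = 0.0581) were not.

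**Figure D3:**
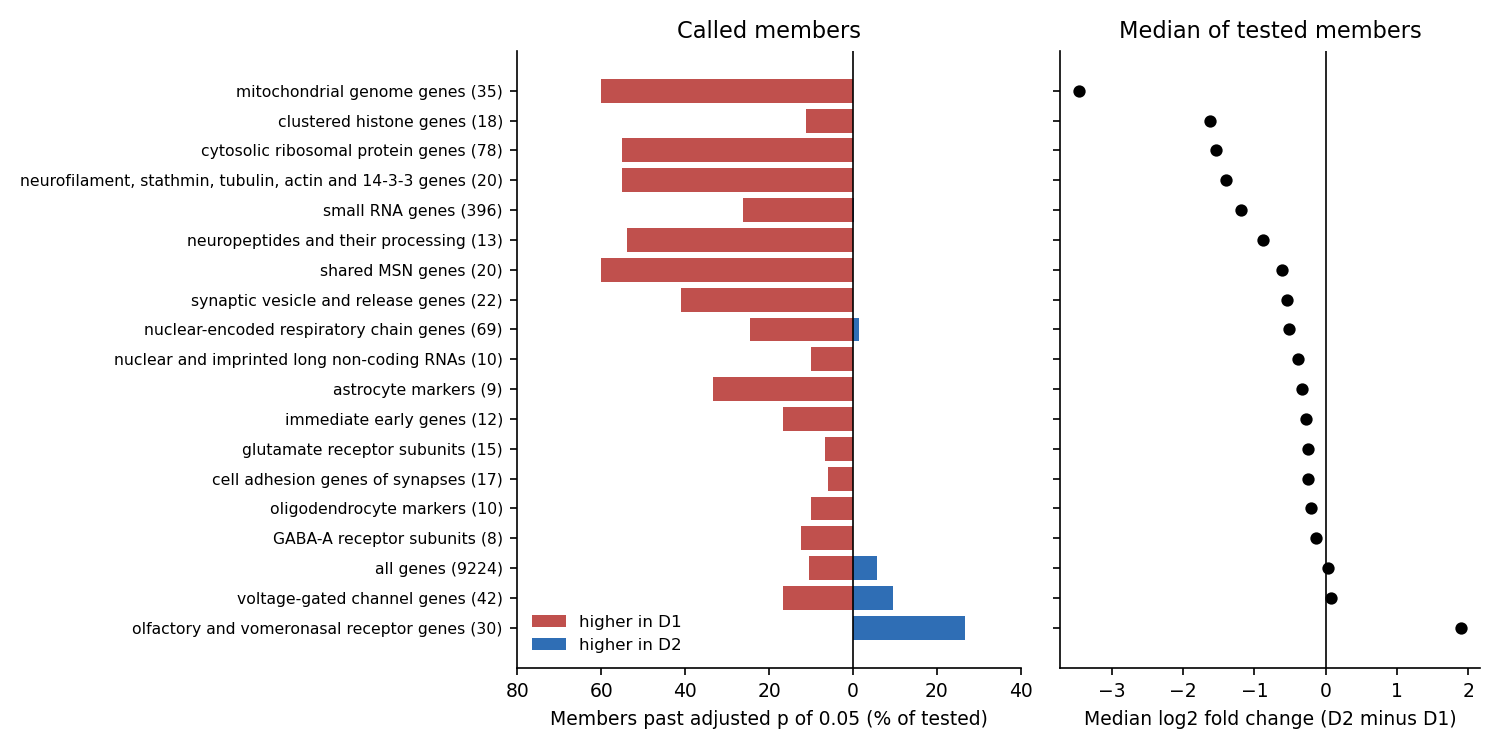
Percent of tested members called higher in D1 (red) or in D2 (blue) for each gene list with at least 8 tested members, and the median log2 fold change of the list (D2 minus D1), beside the same over all 9224 genes tested. The mitochondrial genome list had the lowest median (-3.46) and the receptor genes used to measure background the highest (1.89), a direction that their use for the background share fixes.

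Genes of ribosomal proteins and of the cytoskeleton were called in D1 alone. Of 83 cytosolic ribosomal protein genes 78 were tested, with 43 called higher in D1, 0 in D2 (10.4% and 5.72% over all genes tested) and a median log2 fold change of -1.54. The calls fell to 10 of 76, with a median of -1.26, when D1 libraries 1, 2 and 5 were left out. Rpsa, a protein of the small subunit, had 30.4, 108 and 225 normalised CPM as lowest, median and highest D1 value and 15.1, 24.7, 21.9, 14.6 and 15.9 in D2 libraries (-2.68 ± 0.45, edgeR adjusted p = 0.00919), and Rpl13a of the large subunit had a log2 fold change of -2.81 ± 0.52 with the same adjusted p. Both had no overlap between the groups. Rpsa overlaps small RNA genes such as Snora62, and Rpl13a such genes as Snord33 and Snord34. A fragment on several genes was counted for each, so reads of these small RNAs may be part of the counts of Rpsa and Rpl13a. Ribosomal protein genes have many processed copies in the genome, and reads that aligned to several places were left out, so their levels are uncertain. Of 20 genes for neurofilaments, stathmins, tubulins, actins and 14-3-3 proteins, 11 were higher in D1 and 0 in D2 (median -1.39), and 7 of 19 without D1 libraries 1, 2 and 5. The actins Actb (-2.83 ± 0.51, adjusted p = 0.00919) and Actg1 (-2.74 ± 0.54, adjusted p = 0.00930) led that list. In D2 libraries Actb had 28.7, 43.5, 51.6, 21.3 and 29.3 normalised CPM, all under the lowest D1 value of 78.9.

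Genes of energy metabolism had the same direction. Of 69 tested genes for nuclear-encoded respiratory chain subunits, 17 were higher in D1 and 1 in D2, against 10.4% and 5.72% of all genes tested, with a median log2 fold change of -0.51. These counts were 5 and 0 of 68 (median -0.32) when D1 libraries 1, 2 and 5 were left out. Cox5b, a subunit of cytochrome c oxidase, had the largest fold change among D1-enriched protein-coding DEGs without overlap. It had 15.6, 48.1 and 113 normalised CPM as lowest, median and highest D1 value and 5.48, 6.11, 7.15, 3.78 and 5.09 in D2 libraries. It was 10.2-fold higher in D1 (-3.35 ± 0.58, edgeR adjusted p = 0.00919). The ATP synthase subunits Atp5b (-2.59 ± 0.52, adjusted p = 0.00953) and Atp5h (-2.02 ± 0.40, adjusted p = 0.00951) also had every D1 library above every D2 library. Atp5b overlaps the small RNA genes Snord59a and Mir677, whose reads may be part of its counts. Of 35 tested genes of the mitochondrial genome 21 were called higher in D1 and 0 in D2, with a median log2 fold change of -3.46, but 0 counted as DEGs because their standard errors were above the study's limit. Of 26 tested without D1 libraries 1, 2 and 5, 14 were called. The spread was wide, as mt-Co1, a catalytic subunit of the same oxidase, had 106, 735 and 2412 normalised CPM as lowest, median and highest D1 value and 32.3, 87.7, 82.2, 26.1 and 29.3 in D2 libraries (-4.32 ± 0.85, adjusted p = 0.00930). All 35 carry RNA that is made outside the nucleus.

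Synaptic and peptide genes were also higher in D1 nuclei where they were called. Of 22 tested genes of synaptic vesicles and transmitter release, 9 were higher in D1 and 0 in D2 (median log2 fold change -0.54; 10.4% and 5.72% of all genes tested were called), and 4 of 22 without D1 libraries 1, 2 and 5. Among them were the SNARE proteins Snap25 (-1.19 ± 0.23, edgeR adjusted p = 0.00919) and Vamp2 (-1.996 ± 0.43, adjusted p = 0.0102), neither with overlap. Of 13 tested neuropeptide and peptide-processing genes 7 were higher in D1 and 0 in D2 (median -0.88), and 2 of 14 without those libraries. Scg2, a granin of secretory granules, had 39.8, 124 and 196 normalised CPM as lowest, median and highest D1 value and 20.8, 27.8, 28.0, 18.8 and 14.6 in D2 libraries (-2.40 ± 0.38, adjusted p = 0.00919). Somatostatin, Sst, a peptide of interneurons rather than of MSNs, had -1.90 ± 0.37 (adjusted p = 0.00930) and the secreted growth-factor-induced protein Vgf -1.43 ± 0.30 (adjusted p = 0.0101), both with overlap and neither called without those libraries (adjusted p = 0.0562 and 0.0644). The summed interneuron markers, of which Sst is a member, were higher in D2 libraries by CPM, which lack the TMM scaling of the fold changes. That sum covers all 10 markers, of which 3 passed the filter to be tested.

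Receptor subunits and adhesion molecules of the synapse had shares of calls near that of all genes. Of the tested genes, 1 of 15 glutamate receptor subunits, 1 of 8 GABA-A receptor subunits and 1 of 17 adhesion genes were called, all with higher levels in D1, against 10.4% of all genes, and the medians were -0.24, -0.14 and -0.24. The genes called were the AMPA receptor subunit Gria2 (-0.74 ± 0.23, edgeR adjusted p = 0.0426), the GABA-A subunit Gabra4 (-0.57 ± 0.17, adjusted p = 0.0378) and neuroligin 3, Nlgn3 (-0.74 ± 0.17, adjusted p = 0.0132). In the edgeR fit without D1 libraries 1, 2 and 5, 0 of 14, 0 of 7 and 0 of 18 were called. Voltage-gated channels went both ways, with 7 of 42 higher in D1, 4 higher in D2 and a median of 0.07 (-0.18 when scaled without the FPKM filter), and with 1 and 3 of 50 without those D1 libraries. The potassium channels Kcna1 (-0.98 ± 0.19, adjusted p = 0.00919) and Kcna4 (-1.17 ± 0.24, adjusted p = 0.00960) were higher in D1, and Kcnh1 higher in D2 (0.61 ± 0.14, adjusted p = 0.0147), but Kcnh1 had the opposite sign (-0.51, adjusted p = 0.0672) when scaled without the FPKM filter. Neither Kcna4 (adjusted p = 0.0607) nor Kcnh1 (adjusted p = 0.121) was called without those libraries. Of 12 tested immediate early genes, which neurons turn on when active, Egr1 (-1.47 ± 0.41, adjusted p = 0.0295) and Jun (-1.28 ± 0.37, adjusted p = 0.0327) were higher in D1 and none in D2. Both calls were fragile, as Egr1 missed the threshold or changed sign in 13 and Jun missed it in 12 of 23 alternatives, with adjusted p-values up to 0.0897 and 0.0775 when single libraries were left out, and 0 of the 12 genes were called without D1 libraries 1, 2 and 5 by edgeR. Leaving out any D2 library ended both calls, leaving out D1 library 5 ended that of Egr1 and leaving out D1 library 1 that of Jun. Of 10 tested nuclear or imprinted long non-coding RNAs, 1 was higher in D1, the imprinted Peg13 (-1.63 ± 0.40, adjusted p = 0.0185; 0 of 10 without those libraries), while Malat1, a main RNA of nuclear speckles, had -0.60 ± 0.29 (adjusted p = 0.169).

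Few markers of other cell types were called, and in several of these lists few members were tested. Over all genes tested, 10.4% were called higher in D1 and 5.72% higher in D2. Astrocyte markers had 3 of 9 tested members higher in D1, a larger share than over all genes, and 0 in D2. The called members included the glutamate transporter Slc1a2 (-1.02 ± 0.23, edgeR adjusted p = 0.0133, but 0.0516 without D2 library 5). Among 10 oligodendrocyte markers 1, the myelin enzyme Cnp (-0.96 ± 0.22, adjusted p = 0.0124), was higher in D1, and so was 1 of 3 tested microglial markers. Of 2 tested endothelial markers, Ly6a was higher in D2 (2.68 ± 0.76, adjusted p = 0.0316). Ly6a missed the threshold in 12 of 21 alternatives, with adjusted p-values of 0.0526 to 0.0689 without D1 library 1 or 5 or D2 library 1, 2 or 5. Without D1 libraries 1, 2 and 5, 3 of 8 astrocyte and 1 of 10 oligodendrocyte markers were called higher in D1, and 0 of 5 microglial and 0 of 3 endothelial markers were called by edgeR. No member was called among 3 precursor and 4 cortical excitatory markers tested, by edgeR. Of 3 tested interneuron markers, Sst alone was called, higher in D1, and the median log2 fold change of the 3 genes was -0.88. When the FPKM filter was dropped all 10 were tested, with 2 called higher in D1 and 2 higher in D2 (20.6% and 5.6% of all genes tested there). Their median was then 0.47, and 3 of the 10 had a negative value. Without D1 libraries 1, 2 and 5, 0 of 2 tested interneuron markers were called.

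The genes with the largest folds or the smallest p towards D1 came from several families, and some overlapped other genes. After Cox5b, the largest fold changes among D1-enriched protein-coding DEGs without overlap were those of Ddn, a protein of dendrites and the postsynaptic density (-3.10 ± 0.56), the brain-expressed X-linked genes Bex2 (-2.99 ± 0.56), Bex1 (-2.95 ± 0.56) and Bex3 (-2.90 ± 0.60), and Filip1l (-2.86 ± 0.57), with adjusted p-values from 0.00919 to 0.0100 by edgeR. Bex3 missed the threshold without D1 libraries 1, 2 and 5 (adjusted p = 0.0513), and Bex1 in thinned libraries (adjusted p = 0.0525). The Bex genes are close relatives, so reads of shared sequence may have been left out. Filip1l had 13220 to 90078 normalised CPM in D1 and 3595 to 9105 in D2 libraries, shares far above those of the other genes named here, and it overlaps Cmss1 on the opposite strand. The smallest p-values in this direction belonged to genes with moderate folds. Eif4a2, a translation initiation helicase whose introns hold several small RNA genes, had -1.65 ± 0.26, the phosphatase inhibitor Ppp1r2 -1.60 ± 0.26, the sodium pump subunit Atp1b1 -1.51 ± 0.25 and the zinc finger gene Zcchc18 -1.51 ± 0.25, each with an adjusted p of 0.00919. Atp1b1 had 220, 375 and 590 normalised CPM as lowest, median and highest D1 value and 133, 180, 156, 101 and 141 in D2 libraries. Ccdc107 (-2.27 ± 0.35, adjusted p = 0.00919) lies across Rmrp on the opposite strand, and because counting ignored strand the reads of the pair cannot be told apart.

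Small structured RNAs were among the strongest D1 differences. Of 396 tested small RNA genes, 104 were called higher in D1 and 1 in D2, where 10.4% and 5.72% of all genes were, with a median log2 fold change of -1.19. The calls towards D1 fell to 31 of 284 without D1 libraries 1, 2 and 5, and in libraries thinned to the lowest total to 47 of 689, with a median of -0.36 (2.73% of all genes tested there were called higher in D1). The 104 included 48 of 157 small nucleolar RNAs, 23 of 49 small nuclear RNAs and 27 of 174 miRNA loci. Rmrp, the RNA of an endoribonuclease that trims ribosomal RNA, had 105, 248 and 709 normalised CPM as lowest, median and highest D1 value and 31.0, 66.6, 37.8, 20.7 and 45.8 in D2 libraries (-2.91 ± 0.43, edgeR adjusted p = 0.00919). Rn7sk, which holds back the elongation factor P-TEFb, had 185, 906 and 1320 against 104, 89.5, 99.1, 40.6 and 110 (-3.19 ± 0.49, adjusted p = 0.00919). In both the groups were apart. The small nuclear RNA gene Gm22513 had the largest fold change of all DEGs, 15.5-fold higher in D1 (-3.95 ± 0.59, adjusted p = 0.00919), with 88.2, 520 and 1397 normalised CPM as lowest, median and highest D1 value and 44.0, 61.1, 39.5, 21.6 and 35.6 in D2 libraries. Many such RNAs have near-identical copies, and the reads the authors left out as multiply aligned make their levels uncertain. Snord17, a small nucleolar RNA within an intron of Snx5, had -1.87 ± 0.30 (adjusted p = 0.00919), and Gm10558, on the strand opposite to Map2, -1.22 ± 0.19 with the same adjusted p.

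Of 174 tested miRNA loci 13 were D1-enriched DEGs and 0 D2-enriched, a share below the 9.07% of D1-enriched DEGs over all genes tested. Of the 13, 6 had no overlap between groups and 5 could be matched to RefSeq by symbol and position. Their mature sequences are given with the seed, bases 2 to 8, in capitals, because the seed is what pairs with target transcripts and would group related miRNAs.
miR-3068-5p: uUGGAGUUcaugcaaguucuaacc
miR-3068-3p: gGUGAAUUgcaguacuccaaca
miR-125b-5p: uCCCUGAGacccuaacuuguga
miR-125b-1-3p: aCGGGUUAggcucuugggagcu
miR-8104: cAGGAUGAgguggagugcagcg
miR-8094: aACUGAAGgacaacgagaaga
miR-5114: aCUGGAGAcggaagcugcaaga
The 7 sequences carried 7 different seeds, and the seeds of the loci that could not be matched are not known here. Mir3068 (chromosome 12, 87437679 to 87437757, minus strand, GRCm38) had a log2 fold change of -2.64 ± 0.56 (edgeR adjusted p = 0.0101), and a small nucleolar RNA gene of the same symbol covers the same bases and reads. Mir5114 had -1.58 ± 0.44 (adjusted p = 0.0299), Mir8104 -1.33 ± 0.39 (adjusted p = 0.0337), Mir125b-1 -1.29 ± 0.40 (adjusted p = 0.0436) and Mir8094 -1.24 ± 0.36 (adjusted p = 0.0324). These counts are fragments of long-insert total RNA over hairpin loci, so they hold precursors and host transcripts rather than mature miRNAs.

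In D2 nuclei, the strongest differences lay in a run of neighbouring genes on chromosome 9. Drd2 is followed by Ankk1, a kinase-like gene (49415194 to 49427021, minus strand, 7016 bases from Drd2), and by Ttc12, a gene of ciliary motility (49436963 to 49486225, minus strand, 9941 bases from Ankk1). Ankk1 had 16.6, 17.6 and 22.4 normalised CPM as lowest, median and highest D1 value and 68.1, 60.2, 62.9, 82.9 and 66.2 in D2 libraries. It was 3.62-fold higher in D2 (log2 fold change 1.86 ± 0.15, edgeR adjusted p = 5.87e-05), the smallest adjusted p of all genes. Ttc12 had 8.29, 18.9 and 45.6 as lowest, median and highest D1 value and 304, 209, 240, 367 and 238 in D2 libraries, 12.5-fold higher in D2 (3.64 ± 0.37, adjusted p = 0.000481), the largest fold change among D2-enriched DEGs. Both genes had a wide gap between the groups. Neither shares bases with another annotated gene. Ncam1, the neural cell adhesion molecule that comes after Ttc12, had -0.20 ± 0.14 (adjusted p = 0.347), with 933 to 1329 normalised CPM in D1 and 861 to 1079 in D2 libraries. Background predicted a median of 30.6% of the Ttc12 counts in D1 and 13.7% in D2 libraries, and after its subtraction the log2 fold change was 4.42 (adjusted p = 2.92e-05). Without D1 libraries 1, 2 and 5 it was 2.94 (adjusted p = 0.000380), and scaled without the FPKM filter 2.72 (adjusted p = 0.000657), where Ankk1 had 0.69 (adjusted p = 0.0565). The 250 bases before the Ttc12 start, at chr9:49486226-49486475 on the minus strand of GRCm38.p6, are given with the GC box in capitals. They are shown because this gene had the largest difference towards D2 among DEGs.
Ttc12: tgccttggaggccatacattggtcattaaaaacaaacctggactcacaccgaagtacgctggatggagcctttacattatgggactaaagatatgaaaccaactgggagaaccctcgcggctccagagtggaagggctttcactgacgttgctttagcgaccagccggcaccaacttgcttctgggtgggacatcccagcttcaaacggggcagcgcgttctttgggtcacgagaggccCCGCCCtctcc
The window held 12 CpG pairs and 1 GC box. Beside Drd1, the mitochondrial serine carrier Sfxn1 was the called neighbour within 200 kb. It had 64.1, 103 and 129 normalised CPM as lowest, median and highest D1 value and 71.8, 53.7, 59.2, 69.2 and 60.4 in D2 libraries, with overlap (-0.68 ± 0.17, edgeR adjusted p = 0.0186). Leaving out D2 library 2, 3, 5 or 7 gave Sfxn1 adjusted p-values of 0.0550 to 0.0672.

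Other D2-enriched genes had smaller fold changes than Ttc12, and many of their calls were lost under other settings. Galnt9, which starts mucin-type sugar chains in brain, had 63.3, 83.2 and 127 normalised CPM as lowest, median and highest D1 value and 158, 243, 190, 284 and 297 in D2 libraries (1.38 ± 0.21, edgeR adjusted p = 0.00919), but 0.30 (adjusted p = 0.301) when scaled without the FPKM filter. Adgra1, an adhesion-type G protein-coupled receptor, had a log2 fold change of 0.97 ± 0.17 (adjusted p = 0.00919), but -0.14 when scaled without the FPKM filter and 0.74 (adjusted p = 0.0564) without D1 libraries 1, 2 and 5. Both had no overlap between groups. The next largest folds after Ttc12 among D2-enriched protein-coding DEGs without overlap were those of Mbl1, a mannose-binding lectin (2.40 ± 0.59, adjusted p = 0.0181), Rsg1, a small GTPase of cilium formation (2.14 ± 0.56, adjusted p = 0.0219), Gcat, an enzyme of threonine breakdown (2.06 ± 0.59, adjusted p = 0.0325), the lysoplasmalogenase Tmem86a (2.03 ± 0.56, adjusted p = 0.0286) and Mif4gd, a factor in histone transcript translation (2.03 ± 0.58, adjusted p = 0.0308). None of these 5 was called without D1 libraries 1, 2 and 5, with adjusted p-values of 0.0794 for Mbl1 to 0.202 for Mif4gd. Gcat missed the threshold in 9 of 14 alternatives, Tmem86a in 10 of 21, Mif4gd in 11 of 21 and Rsg1 in 7 of 21. Leaving out D1 library 5 ended the calls of Gcat, Tmem86a and Mif4gd, D1 library 1 those of Gcat and Mif4gd, D2 library 5 those of Rsg1, Tmem86a and Mif4gd, D2 library 1 that of Tmem86a and D2 library 3 that of Mif4gd, with adjusted p-values up to 0.0710. Mbl1 had 0.425 to 8.89 normalised CPM in D1 libraries and 19.5, 11.0, 11.7, 17.4 and 34.4 in D2 libraries, and background predicted a median of 43.6% and 42.7% of its counts. The non-coding genes with the smallest p in this direction were Gm48265 (2.503 ± 0.44), Gm26704 (1.26 ± 0.23), Gm9899 (1.25 ± 0.23) and Gm26660 (0.90 ± 0.17), each with an adjusted p of 0.00919. Each overlaps another gene, in turn Tmem267, Fzd6, Kcnk3 and Zmiz1os1, so their reads cannot be assigned with certainty, and Gm26660 turned to -0.17 when scaled without the FPKM filter, where Gm26704 had 0.22 (adjusted p = 0.257) and Gm9899 0.11 (adjusted p = 0.787).

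The direction of the difference moved with the level of a gene. The median log2 fold change was 1.54 for the 878 tested genes with a mean of under 0.5 fragments per kilobase of gene span, scaled per-million (FPKM), 0.23 for the 4450 genes from 0.5 to 1, -0.23 for the 2369 from 1 to 2, -0.72 for the 917 from 2 to 5, -1.14 for the 283 from 5 to 10 and -2.05 for the 327 above 10 FPKM. Genes of the classes under 0.5 and from 0.5 to 1 FPKM had to reach 1 FPKM in at least 1 library to be tested at all. They could thus pass only through their highest libraries. These classes held 27 and 238 of the 296 D2-enriched DEGs, and 1 and 48 of the 837 D1-enriched DEGs. In their own cell type, D1-enriched DEGs had a median of 3.82 FPKM and D2-enriched DEGs one of 0.746. Of the 1930 olfactory and vomeronasal receptor genes from which the background share was measured 30 passed this filter, and their median of 1.89 is a description, since that use fixes its direction. With the background of each library subtracted from every gene, 975 D1-enriched (9.02%) and 634 D2-enriched (5.86%) DEGs were found among 10815 genes tested, a D1 share of 60.6% against 73.9% before subtraction, while the calls by adjusted p alone were more towards D2, as given above. With the background share as a covariate, the fit left 0 DEGs in either direction by edgeR and 64 genes with an unadjusted p under 0.05, and 370 D1-enriched and 31 D2-enriched DEGs changed sign. As no D1 library had a share within the D2 range, that fit cannot tell the share and the cell type apart.

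How many genes were called depended on the libraries and on the filter. Without D1 libraries 1, 2 and 5, 226 D1-enriched (2.01%) and 103 D2-enriched (0.916%) DEGs were found among 11244 genes tested, and 224 and 17 of the original DEGs were still called. Leaving out D2 library 5 alone gave 302 and 68 DEGs, the lowest numbers among single libraries, and leaving out D1 library 3 gave 1020 and 476, the highest. When the FPKM filter was dropped 30791 genes were tested, with 5938 D1-enriched (19.3%) and 1336 D2-enriched (4.34%) DEGs. The scaling then moved the median of the genes tested in both fits by -1.13 towards D1, and with it 193 of the 296 D2-enriched DEGs changed sign. Such a shift by itself moves D1 calls further from 0 and D2 calls towards it, so calls kept in that fit say nothing about their stability. No DEG was called under every alternative, since 3 of them made no call (0 DEGs by edgeR). In the 2 D1 and 4 D2 libraries above 20000000 counts, 0 genes were called by edgeR, the smallest adjusted p was 0.0713 and 2184 genes had an unadjusted p under 0.05. Drd1 had -1.89, Drd2 1.99, Ttc12 3.36 and Penk -2.17 in those libraries, all with an adjusted p of 0.144 to 0.149.

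**Figure D4:**
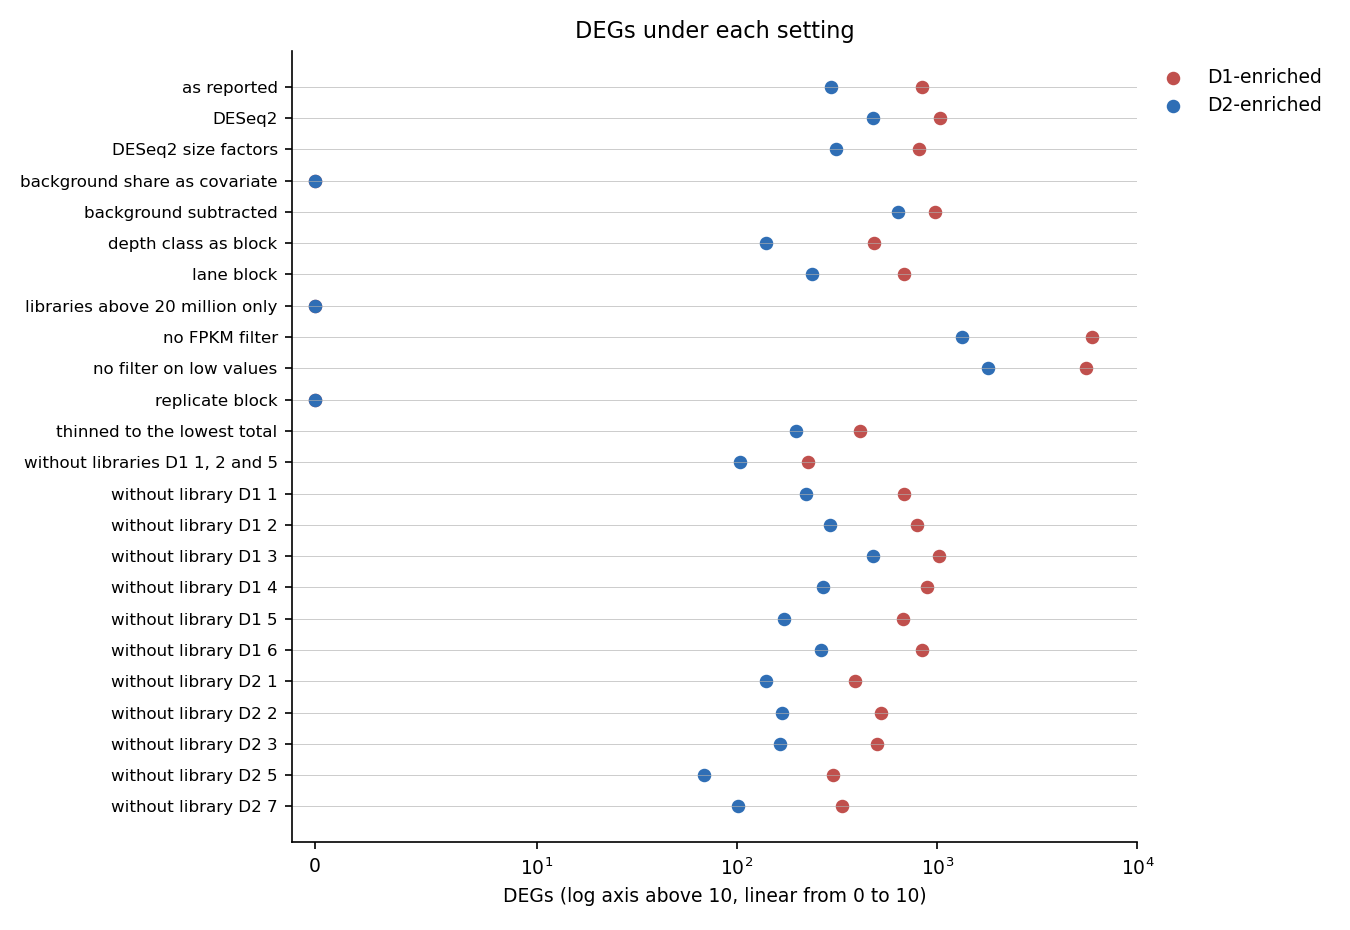
Number of D1-enriched (red) and D2-enriched (blue) DEGs under each way of processing the nuclear libraries, on an axis that is logarithmic above 10 and linear below it. Counts fell to 0 in both directions with the background share as a covariate, in libraries above 20000000 counts and when replicate numbers formed a block (red points lie under blue ones there), and rose to 5938 and 1336 without the FPKM filter.

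The difference between D1 and D2 libraries was not the same for sorted nuclei as for RiboTag. RiboTag libraries of male mice, 6 D1 and 6 D2, were fitted together with the nuclear ones, and the D2-against-D1 log2 fold change differed between the methods in 4786 of 10605 genes (45.1%; edgeR interaction, adjusted p at most 0.05), above the RiboTag value in 2190 (20.7%) and below it in 2596 (24.5%). This fit took a single spread per gene for both methods. In the paper, RiboTag libraries clustered more tightly than nuclear ones, so the p-values of the interaction may be too small. TMM scaling ran over the libraries and genes of both methods, so nuclear values here differ from those above. The nuclear side of each difference carries the background share, which cannot be told apart from the cell type. The methods also used other mouse lines, and frozen tissue for nuclei against fresh tissue for RiboTag. A difference between methods thus cannot be told apart from these features. Drd1 had about the same difference in both, -2.12 in nuclei and -1.93 in RiboTag RNA (interaction -0.19 ± 0.35, adjusted p = 0.685). A p that misses the threshold does not show that the methods are alike for this gene. Drd2 was separated less in nuclei, by 1.38 against 2.73 (interaction -1.35 ± 0.29, adjusted p = 0.000971). For Penk the methods had opposite signs, -2.80 in nuclei and 2.33 in RiboTag RNA (interaction -5.12 ± 0.58, adjusted p = 6.36e-06). Adora2a (-0.42 and 2.45), Gpr6 (-1.39 and 2.06) and Sp9 (-0.24 and 1.49) separated D2-MSNs in RiboTag RNA, and their values in nuclei were below those (adjusted p = 3.99e-06, 3.00e-05 and 0.000193 for the interactions). Pdyn had -0.57 in nuclei and -2.61 in RiboTag RNA (interaction 2.04 ± 0.31, adjusted p = 0.000126). Ebf1 (1.19 and -1.21) and Isl1 (0.66 and -1.97) had opposite signs too in this joint fit (adjusted p = 0.000129 and 0.000122). Isl1 was negative in the nuclear libraries alone when scaled without the FPKM filter, so its sign in nuclei rests on the scaling. For Ebf1, background predicted much of the counts in D2 nuclei, as given above. Ttc12 did not pass the interaction test, with 3.34 in nuclei and 2.44 in RiboTag RNA (adjusted p = 0.103), and Ankk1 had 2.31 there and a lower value in nuclei (interaction -0.78, adjusted p = 0.0230).

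**Figure D5:**
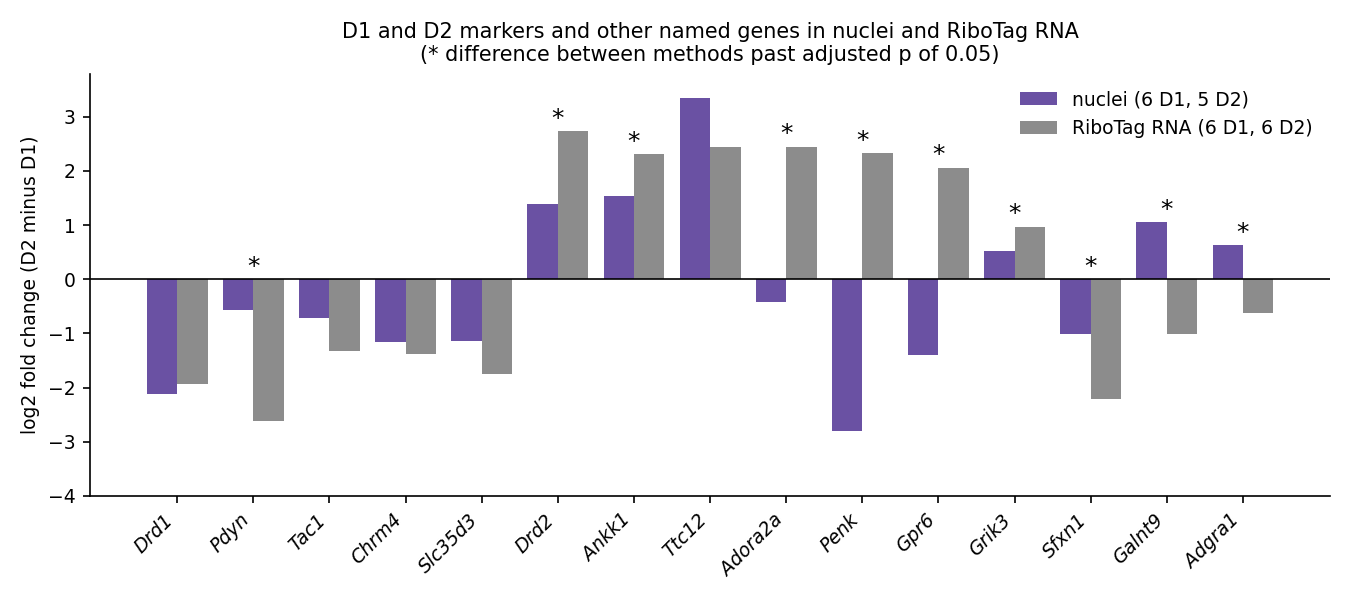
Log2 fold change (D2 minus D1) in sorted nuclei (purple bars) and in RiboTag RNA (grey bars) from the joint fit for 15 named genes, with an asterisk where the difference between the methods had an adjusted p of at most 0.05. Drd1 had bars of like height, -2.12 and -1.93, while Penk, Adora2a and Gpr6 had positive values in RiboTag RNA and negative values in nuclei.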

How the data were processed

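RNA of nuclei sorted from the NAc was sequenced in paired ends, and 11 libraries (6 D1, 5 D2) were used here, with 12 RiboTag and 14 whole cell libraries for comparison of methods. The authors aligned reads to GRCm38 with HISAT2 2.0.5 and deposited the count of fragments per Ensembl gene, made with featureCounts over the whole gene body, without regard to strand, with a fragment on several genes counted for each and multiply aligned fragments left out. Values are raw counts with no normalization. Of the 49 columns, 11 were not used. The D2 columns are numbered 1, 2, 3, 5 and 7 while the labels number them from 1 to 5, so numbers 5 and 7 were tied to the group alone. Of 52636 genes, 52403 (99.56%) matched GENCODE M21 by identifier.

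Genes with more than 1 fragment-per-million in at least 2 libraries, at least 1 FPKM (per kilobase of gene span) in at least 1 and at most 50000 in all were tested with edgeR 4.0.16 (R 4.3.3), TMM normalization, the quasi-likelihood F test and Benjamini-Hochberg adjustment over all genes tested. The SE is the absolute log2 fold change over the square root of F. DEGs had to pass an adjusted p of 0.05, a log2 fold change beyond 0.38 in size, a mean normalised count above the 25th percentile and an SE below the 75th. Library measures were compared by the exact permutation test over all 462 splits (SciPy 1.17.1). A level of 3 counts, the smallest taken as detectable, was 0.0436 to 0.811 CPM by library, which covers counting error only. Methods were compared by the interaction term of edgeR, with a single dispersion per gene for both methods. The edgeR and DESeq2 fits were tested on simulated counts. There edgeR called 38% and 40% of the genes given a log2 fold change of -1 and 1. For the interaction these shares were 16% and 18%, so a gene that was not called may still differ. Alternatives were DESeq2 1.42.0, its size factors, other filters, background subtraction, blocks for lane and replicate number, libraries thinned to one total and each library left out. Depth blocks, the background covariate, libraries above 20000000 counts and leaving out D1 libraries 1, 2 and 5 were chosen after seeing the data.

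Named genes are all D1 and D2 markers, DEGs without overlap (per direction the 6 protein-coding genes with the largest fold, the 6 with the smallest p and the 4 non-coding genes with the smallest p), up to 4 genes per list with the smallest p, tested genes within 200 kb of Drd1 or Drd2, and genes above 5% of a library. A few results for genes named by these rules, and the summed level of the microglial markers, are not reported here. miRNA loci and the other genes of the interaction test were chosen after their values were seen. The members and lists were chosen with earlier results of these data known.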

Additional observations from a re-analysis of the deposited data

Results flagged for a closer look

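Single libraries stood apart from the rest of their group in 12 of 158 groups of values examined (7.60%). The limit used is passed by chance in about 1 group in 20 where values are normal and groups independent. These groups share the same libraries and their values were not logged, so that rate need not hold here. D2 library 7 had the lowest total count of its group, 3701255, against 35944738 in the nearest D2 library, and the fewest genes with a count, 34107 against 49814. It also had the lowest level of Atp5h (5.73 normalised CPM) and the highest of Mif4gd (32.5) and Ly6a (17.2). D1 library 2 had the lowest sum of oligodendrocyte markers, 590 CPM, and the highest Drd2 level of the D1 libraries, 420 normalised CPM against 265 in the next. Pdyn was high in D1 library 6 (73.1 normalised CPM) and in D2 library 5 (39.2). D1 library 3 had the highest levels of Adgra1 (94.9) and Ly6a (3.25) in D1, and D1 library 5 that of Rmrp (709).

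The D2-against-D1 difference of several markers differed between sorted nuclei and RiboTag RNA by the edgeR interaction test. The nuclear log2 fold change lay above the RiboTag one by 2.04 for Pdyn (adjusted p = 0.000126). The nuclear minus RiboTag difference was -1.35 for Drd2 (adjusted p = 0.000971), -2.86 for Adora2a (adjusted p = 3.99e-06), -5.12 for Penk (adjusted p = 6.36e-06), -3.45 for Gpr6 (adjusted p = 3.00e-05), -0.45 for Grik3 (adjusted p = 0.0274) and -0.78 for Ankk1 (adjusted p = 0.0230).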

How the results depend on the processing

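The counts of 837 D1-enriched and 296 D2-enriched DEGs, in that order, became 5938 and 1336 without the FPKM filter, 5507 and 1792 without any filter on low values, 485 and 139 with a block for depth class, 410 and 197 with libraries thinned to the lowest total and 226 and 103 without D1 libraries 1, 2 and 5. D2-enriched DEGs numbered 479 with DESeq2, 634 with background subtracted and 528 by adjusted p alone. Leaving out each library in turn gave 302 to 1020 and 68 to 476 DEGs. The D1-enriched count fell by over 1.5 times without any single D2 library (388, 524, 499, 302 and 336 without libraries 1, 2, 3, 5 and 7), and the D2-enriched count without D1 library 5 (171) or any D2 library (140, 168, 164, 68 and 101), while it rose to 476 without D1 library 3. By edgeR, 0 DEGs were left with the background share as a covariate (64 genes with an unadjusted p under 0.05), in libraries above 20000000 counts (2184 such genes) and with the replicate block (2554), and 0 of the 84 named genes called and 0 gene lists kept more calls in D1 than in D2 there. DESeq2 was not run in these 3 fits. Without D1 libraries 1, 2 and 5, 54 named genes kept their call and 11 lists had more calls in D1. The causes were not tested.

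D1 and D2 libraries share the numbers 1, 2, 3 and 5, and deviations of libraries with the same number correlated at -0.083, 0.213, -0.286 and -0.098 across genes, so the numbers do not pair them. With the replicate number as a block over these libraries 0 and 0 DEGs were called, against 335 and 52 in the same libraries without a block.

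Some genes changed sign. Scaled without the FPKM filter and without any filter, in turn, Grik3 had -0.26 and -0.25, Adgra1 -0.14 and -0.13, Gm26660 -0.17 and -0.16 and Kcnh1 -0.51 and -0.50. With the background share as a covariate, Penk had 0.64, Egr1 0.68, Chrm4 0.55, Slc35d3 0.51, Adora2a 0.44, Pde1b 0.25, Vamp2 0.23, Vgf 0.21, Snap25 0.14, Ppp1r1b 0.13, Gpr6 0.11, Zcchc18 0.10, Nlgn3 0.080, Filip1l 0.078, Atp1b1 0.056 and Gm26704 -0.024. Pdyn had 0.085 with the replicate block, 0.55 in thinned libraries and -0.35 to 0.033 with a library left out. Slc35d3 had 0.14 in thinned libraries. Adora2a had 0.21 without D1 libraries 1, 2 and 5 and -0.17 to 0.075 with a library left out. Thinned libraries gave differences of -342 CPM for oligodendrocyte and 16.6 CPM for precursor markers, which no longer passed. Leaving out a library gave -465 to -299.9 and 19.6 to 28.5 CPM, each no longer passing in most cases, and 36.3 to 66.2 CPM for cortical excitatory markers, which passed without D1 library 5 alone. With whole cell in place of RiboTag libraries, 654 of 29930 genes tested (2.19%) had a nuclear difference above and 6371 (21.3%) below. The RiboTag fit tested 10605 genes, so the counts of both fits cover unlike sets of genes. The lowest totals, 3701255 and 3837701 counts, limit genes of low level most.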
